A study of Homo sapiens with 16 samples.

Results

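The genes described here are 45 members of the ATF4 amino acid response, taken as a list of names: 13 enzymes of amino acid synthesis and one-carbon metabolism, 8 amino acid transporters, 12 genes of tRNA charging and export, and 12 stress regulators and effectors. They were found by gene symbol among the 60676 genes of the count table, and all 45 were among the 16503 genes tested. The list was chosen with earlier results of these data known, so no count over it is independent evidence. The cells were THP-1, a human acute monocytic leukemia line, carrying a stable short hairpin RNA. There were 4 hairpin lines, a control hairpin (shNC) and hairpins to UHRF1 (shUHRF1), DNMT1 (shDNMT1) and DNMT3B (shDNMT3B), and each line was given the solvent dimethyl sulfoxide (DMSO) or the phorbol ester PMA at 100 ng/ml for 48 h. UHRF1 and DNMT1 maintain DNA methylation through replication, DNMT3B is a de novo DNA methyltransferase, and PMA drives THP-1 cells towards macrophages. Each of the 8 groups held 2 mRNA libraries, and nothing in the labels says that these came from separate cultures, so that a p-value measures the spread between libraries, which may be technical. Each line was made by lentiviral transfer of a pLKO.1 hairpin vector and kept as puromycin-resistant cells, so that 1 line stands for each hairpin.

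ATF4 is a transcription factor whose mRNA is translated when the initiation factor eIF2 is phosphorylated, which happens when amino acids are short, when unfolded proteins collect in the endoplasmic reticulum (ER), or when heme is low. Its protein binds, with a C/EBP partner, to C/EBP-ATF response elements and raises genes that make, import and charge amino acids, together with regulators such as CHOP (DDIT3) and TRIB3 that limit the response. In macrophages and in leukemia cells the pathway is known for setting serine, asparagine and cystine supply.

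The totals per library ran from 13883556 to 23151864 counts. The share of counts from mitochondrial genes ran from 7.71% to 29.0% in the libraries numbered 1 and from 3.92% to 14.5% in those numbered 2, and was lower after PMA than in DMSO in every line at the same number. The part of these shares in the results was not tested. The monocytic genes CD33, PTPRC, SPI1, LYZ and CD68 were above 10 CPM (read counts scaled to a common library size, with TMM factors) in every library, and the T cell gene CD3D was at 0 in all 16. The hemoglobin gene HBB was at 232 CPM in shNC DMSO library 1 and at most 1.30 CPM elsewhere, so counts without that library are given below, and without it the count called after PMA in shNC was 11 lower and 15 higher. For the tests of whether the PMA response differs from that of shNC, the counts without it were 27 downward and 1 upward in shDNMT3B, 5 and 1 in shDNMT1 and 0 and 1 in shUHRF1. No hairpin line had a called decrease of the mRNA that its hairpin targets. In DMSO, UHRF1 was at 72.0 and 91.2 CPM in shUHRF1 against 87.1 and 123 CPM in shNC, DNMT1 at 82.4 and 111 CPM in shDNMT1 against 89.6 and 140.2 CPM, and DNMT3B at 6.40 and 6.87 CPM in shDNMT3B against 8.73 and 9.73 CPM. After PMA, DNMT3B was called higher in the libraries labelled shDNMT3B than in shNC (log2 1.06 ± 0.23 SE, edgeR adjusted p = 0.00688). It was at 1.26 and 1.59 CPM in shNC, 1.53 and 1.74 in shUHRF1 and 2.48 and 2.74 in shDNMT1. UHRF1 after PMA was at 4.62 and 7.43 CPM in shNC and 9.62 and 12.2 in shUHRF1. It was at 32.2 and 36.6 CPM in shDNMT1 and 26.2 and 34.0 in shDNMT3B. DNMT1 after PMA was at 84.1 and 99.7 CPM in shDNMT1 against 56.9 and 78.0 in shNC. The study also examined the target proteins by Western blot, which is not analysed here. The line names below are the libraries' labels, and every direction given for a line is that of the libraries so labelled.

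The promoters of the members are shown first because the response is defined by a short DNA element. The core TGATGNAA, in which N is any base, was searched on both strands in RefSeq promoter windows of assembly GRCh38.p14, from 250 bases before a transcript start to 50 after it. There were 35116 windows for 27305 genes, so that a gene can have several. A window was found for 37 of the 45 members, and 15 of the 37 (40.5%) held the core, against 4.46% of all genes with a window. Per window, 15 of the members' 59 (25.4%) held it, against 3.62% of all windows. By role, the core was found in 7 of 11 genes of tRNA charging and export, 4 of 7 transporters, 3 of 11 stress regulators and 1 of 8 synthesis enzymes, and in 0 of 6 of the cytosolic tRNA synthetases that are not members. It was found in 1 of 14 mitochondrial tRNA synthetases and in 4 of 8 other targets of the integrated stress response. The stretches around it are given for the 8 members whose core lay wholly before the start of its window, each 5′ to 3′ on the strand of the gene, with the core in capitals in whichever orientation it was read. The stretches lie at chr7:97872443-97872502 (minus strand) for ASNS, chr19:46784878-46784937 (minus) for SLC1A5, chr16:70289660-70289719 (minus) for AARS1, chr7:30594819-30594877 (plus) for GARS1, chr9:92293698-92293736 (minus) for IARS1, chr19:33374045-33374104 (plus) for CEBPG, chr14:75427980-75428021 (plus) for JDP2 and chr15:40953236-40953295 (plus) for CHAC1. Counted from the outermost start of the gene in GENCODE release 44, the SLC1A5 stretch, from 1 of 3 windows, begins 3657 bases inside the gene, and the GARS1 stretch, from 1 of 2, 14286 bases inside. Those of ASNS, IARS1, CEBPG, JDP2 and CHAC1 lie 40 to 360 bases inside, and that of AARS1 spans the outermost start.
ASNS: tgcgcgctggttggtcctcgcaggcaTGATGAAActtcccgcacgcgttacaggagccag
SLC1A5: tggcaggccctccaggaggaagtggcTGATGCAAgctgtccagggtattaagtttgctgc
AARS1: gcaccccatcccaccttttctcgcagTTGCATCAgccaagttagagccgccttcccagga
GARS1: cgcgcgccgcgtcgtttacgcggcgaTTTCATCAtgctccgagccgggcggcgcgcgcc
IARS1: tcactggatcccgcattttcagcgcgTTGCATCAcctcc
CEBPG: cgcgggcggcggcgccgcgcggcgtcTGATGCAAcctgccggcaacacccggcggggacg
JDP2: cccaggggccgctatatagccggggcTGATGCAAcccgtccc
CHAC1: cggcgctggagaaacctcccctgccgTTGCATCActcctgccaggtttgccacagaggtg

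In the other 7 members with the core (SLC7A1, SLC3A2, SLC1A4, NARS1, MARS1, TARS1 and CARS1) it overlapped or followed the start of its window. A match is a description of letters and does not show that a factor binds there. In DMSO, the 15 members with the core had a median log2 fold change of -0.80 in shUHRF1 against shNC, and the 22 whose window lacked it had a median of -1.17. In shDNMT1 the medians were -0.87 and -1.26, and in shDNMT3B 0.34 and 0.53.

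Per kilobase of annotated exons, ATF4 had the highest level of the 45 in shNC cells in DMSO, a mean of 230.8 CPM per kilobase, followed by PSAT1 at 85.6, EPRS1 at 75.6, SLC1A5 at 63.6 and SHMT2 at 54.1. The length was that of all annotated exons of a gene joined, such as 2206 bases for PSAT1, 17366 for GARS1 and 22418 for IARS1. The order of genes therefore depends on the annotation. All levels that follow are CPM without division by length and are compared only within a gene.

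Without PMA, the 3 lines did not lie on the same side of shNC. The members lay lower in shUHRF1 and shDNMT1 and higher in shDNMT3B: of the 4 lines, shDNMT3B had the highest mean for 42 of the 45, and shDNMT1 the lowest for 31 and shUHRF1 for 13. Against shNC, 24 members were lower and 0 higher in shUHRF1 (background over all tested genes 1.15% lower, 0.17% higher), and the median log2 fold change of the 45 was -0.87 against -0.04 over all genes. In shDNMT1, 29 were lower and 0 higher (background 3.39% and 0.57%, median -0.92 against -0.04). In shDNMT3B, 0 were lower and 10 higher (background 2.89% and 1.62%, median 0.50 against -0.02). These comparisons share the shNC libraries. In bulk samples, fewer cells of a type and less RNA per cell cannot be told apart. A member was called at an adjusted p under 0.05 in edgeR's quasi-likelihood test, with the adjustment over all tested genes. With the replicate number as a term, more of all 16503 genes were called than in the background above. That fit called 1134 lower and 757 higher in shUHRF1, 1523 and 717 in shDNMT1, and 1882 and 1201 in shDNMT3B. Leaving out 1 library, the count of 24 in shUHRF1 became 11 without shNC library 1, 11 without shUHRF1 library 1 and 15 without shUHRF1 library 2, and the count of 29 in shDNMT1 became 17 without shDNMT1 library 1 and 24 without shNC library 1. The count of 10 in shDNMT3B became 5 without shNC library 2 or without shDNMT3B library 1 and 7 without shNC library 1, and 28 higher with 2 lower when the replicate number was a term.

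**Figure D1:**
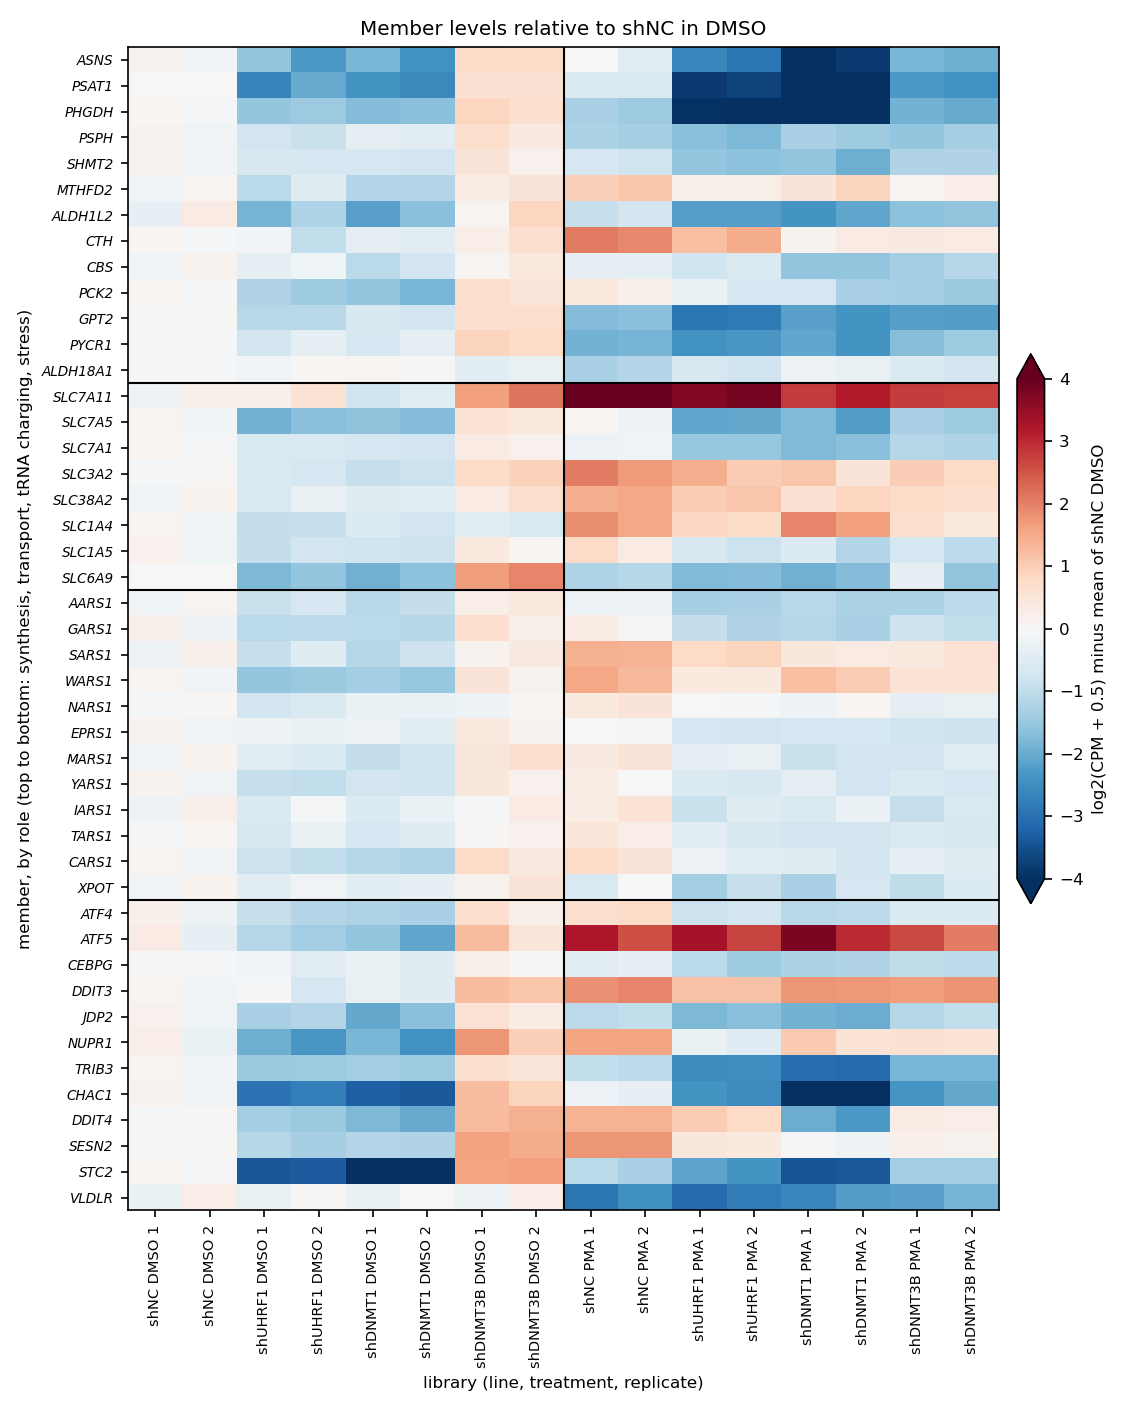
Levels of the 45 members (rows, by role) in each of the 16 libraries (columns), as log2(CPM + 0.5) minus the mean of the shNC DMSO libraries, with colours saturating at -4 and 4. In DMSO the shUHRF1 and shDNMT1 columns are mostly blue and the shDNMT3B columns mostly red, and after PMA the columns of those 3 lines are bluer than the shNC columns.

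Of the 13 synthesis enzymes, 7 were lower in shUHRF1, 9 were lower in shDNMT1 and 2 (GPT2 and PYCR1) were higher in shDNMT3B, with 10 higher and 1 lower in shDNMT3B when the replicate number was a term. ASNS, asparagine synthetase, was at 83.2 and 68.7 CPM in the shNC libraries, 24.8 and 14.9 in shUHRF1, 21.1 and 13.7 in shDNMT1 and 130.4 and 125 in shDNMT3B. The libraries of shUHRF1 and shDNMT1 all lay below those of shNC, and both shDNMT3B libraries lay above them. The level was 3.82-fold lower in shUHRF1 (log2 -1.94 ± 0.30 SE, edgeR adjusted p = 0.00615) and 4.36-fold lower in shDNMT1 (log2 -2.12 ± 0.31 SE, edgeR adjusted p = 0.00144). In shDNMT3B it was at log2 0.75 ± 0.29 (SE), with an edgeR adjusted p of 0.188, or 0.0150 with the replicate number as a term.

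PSAT1, the aminotransferase of serine synthesis, was at 193 and 185 CPM in shNC, 29.8 and 46.5 in shUHRF1, 35.6 and 30.9 in shDNMT1 and 286 and 289 in shDNMT3B. It was 4.95-fold lower in shUHRF1 (log2 -2.31 ± 0.19 SE, edgeR adjusted p = 5.20e-05) and 5.68-fold lower in shDNMT1 (log2 -2.51 ± 0.19 SE, edgeR adjusted p = 5.36e-06). PHGDH, which opens the serine pathway, showed the same order of groups, at 219 and 199 CPM in shNC, 70.8 and 75.0 in shUHRF1, 62.0 and 65.6 in shDNMT1 and 379.8 and 322 in shDNMT3B, and was 2.86-fold and 3.27-fold lower in shUHRF1 and shDNMT1. The last enzyme of that pathway, PSPH, was called lower only in shUHRF1 (log2 -0.86 ± 0.17 SE, edgeR adjusted p = 0.0250), and in shDNMT1 it was at log2 -0.42 ± 0.17 (SE); the difference between those lines (log2 0.44 ± 0.17 SE, edgeR adjusted p = 0.335) was not called. In the mitochondrial folate pathway, ALDH1L2 was lower in shUHRF1 (log2 -1.59) and shDNMT1 (log2 -2.01), while MTHFD2 (log2 -1.19) and SHMT2 (log2 -0.73) were called lower in shDNMT1 and not in shUHRF1, where they stood at log2 -0.75 and -0.67 and were called with the replicate number as a term (edgeR adjusted p = 0.000473 and 0.000721). SHMT2 in shDNMT1 was not called with upper-quartile scaling. PCK2, which makes phosphoenolpyruvate in mitochondria, was lower in shUHRF1 and shDNMT1 (log2 -1.33 and -1.72), as was the alanine aminotransferase GPT2 (log2 -1.13 and -0.71). GPT2 and the proline enzyme PYCR1 were higher in shDNMT3B, by 1.62-fold (log2 0.69 ± 0.13 SE, edgeR adjusted p = 0.00977) and 1.77-fold (log2 0.83 ± 0.18 SE, edgeR adjusted p = 0.0197).

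Of the enzymes that handle sulfur, CBS was called lower in shDNMT1 (log2 -0.92) and was not called in shUHRF1 or shDNMT3B; CBS has a near-identical copy in the hg38 assembly, so its counts are uncertain. CTH, cystathionine gamma-lyase, was at 0.618 to 2.95 CPM in all DMSO libraries and was not called in any of the 3 lines. ALDH18A1, which makes the proline precursor, did not share the order of its group: its libraries lay between 38.7 and 56.2 CPM, and its log2 fold changes were -0.03, 0.08 and -0.36 in shUHRF1, shDNMT1 and shDNMT3B, none of them called unless the replicate number was a term, when it was lower in shDNMT3B (edgeR adjusted p = 0.0433).

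Among the 8 transporters, 4 were lower in shUHRF1, 4 in shDNMT1 and 1 was higher in shDNMT3B; with the replicate number as a term these counts were 7, 8 and 5, with 1 lower in shDNMT3B. SLC7A5, the light chain of the leucine transporter LAT1, was at 239 and 208 CPM in shNC, 59.1 and 69.6 in shUHRF1, 72.6 and 66.8 in shDNMT1 and 327 and 297 in shDNMT3B. It was 3.47-fold lower in shUHRF1 (log2 -1.80 ± 0.19 SE, edgeR adjusted p = 0.000347) and 3.21-fold lower in shDNMT1 (log2 -1.68 ± 0.19 SE, edgeR adjusted p = 0.000184), and the groups did not overlap. Its heavy-chain partner SLC3A2 was 1.87-fold lower in shDNMT1 (edgeR adjusted p = 0.0400) and at log2 -0.65 in shUHRF1 (edgeR adjusted p = 0.200, or 0.00988 with the replicate number as a term). With upper-quartile scaling SLC3A2 was not called in shDNMT1. The cationic transporter SLC7A1 was lower in shUHRF1 and shDNMT1 (log2 -0.62 and -0.74), and the neutral transporter SLC1A4 was lower in shUHRF1 (log2 -0.95). SLC1A4 was at 122 and 106 CPM in shNC, 77.7 and 66.9 in shDNMT1 and 83.4 and 74.7 in shDNMT3B. It was not called in shDNMT1 unless the replicate number was a term. In shDNMT3B it was the 1 transporter below shNC (log2 -0.53), which was not called in the main fit. SLC1A5 and SLC38A2, which carry glutamine, were at log2 -0.87 to -0.44 in these lines and were not called in either unless the replicate number was a term.

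SLC7A11, the cystine importer of system xc-, had another order of lines than SLC7A5. It was at 18.5 and 24.6 CPM in shNC, 24.8 and 32.0 in shUHRF1, 12 and 15.5 in shDNMT1 and 68.0 and 96.5 in shDNMT3B. The lower shUHRF1 library stood beside the higher shNC library, and both shDNMT1 libraries were below both of shNC. Neither difference was called, at log2 0.40 ± 0.23 (SE) in shUHRF1 and -0.65 ± 0.23 (SE) in shDNMT1, where the edgeR adjusted p was 0.172, or 0.00370 with the replicate number as a term. It was 3.82-fold higher in shDNMT3B (log2 1.93 ± 0.23 SE, edgeR adjusted p = 0.000316). The glycine transporter SLC6A9 was counted by 27 and 26 reads in shNC, 1 and 3 in shUHRF1, 0 and 2 in shDNMT1 and 104 and 135 in shDNMT3B. No fold change is given for it since too few reads lie behind the low groups; it was called lower in shUHRF1 (edgeR adjusted p = 0.0404) and shDNMT1 (edgeR adjusted p = 0.0125), and in shDNMT3B its edgeR adjusted p was 0.0537, or 0.00145 with the replicate number as a term.

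Of the 12 tRNA charging genes, 5 were lower in shUHRF1 and 7 in shDNMT1, and 0 were called by edgeR in shDNMT3B, where 4 had an unadjusted p under 0.05 and DESeq2 called 2 higher. With the replicate number as a term 9 were lower in shUHRF1, 9 lower in shDNMT1 and 4 higher in shDNMT3B. The median log2 fold changes were -0.69, -0.83 and 0.32. WARS1, tryptophanyl-tRNA synthetase, was at 218 and 191 CPM in shNC, 69.7 and 72.6 in shUHRF1, 79.1 and 70.6 in shDNMT1 and 291 and 225 in shDNMT3B. It had the largest difference of the 12 in both lower lines, 2.87-fold in shUHRF1 (log2 -1.52 ± 0.18 SE, edgeR adjusted p = 0.000682) and 2.73-fold in shDNMT1 (log2 -1.45 ± 0.18 SE, edgeR adjusted p = 0.000338). The glycyl enzyme GARS1 was at 309 and 234 CPM in shNC, 126 and 129 in shUHRF1, 128 and 121 in shDNMT1 and 424 and 319 in shDNMT3B, and was 2.13-fold and 2.18-fold lower in the first pair of lines. The enzymes for alanine (AARS1, log2 -0.80 and -1.05), cysteine (CARS1, log2 -0.94 and -1.21) and tyrosine (YARS1, log2 -0.97 and -0.79) were also called lower in both. SARS1 and MARS1 were called lower in shDNMT1 (log2 -1.01 and -0.87) and not in shUHRF1. There, SARS1 was at 44.8 and 60.5 CPM, against 74.3 and 97.6 in shNC. MARS1 was at 89.6 and 79.2 CPM in shUHRF1, against 108 and 132 in shNC. Between shDNMT1 and shUHRF1, 0 of the 12 charging genes were called. NARS1, EPRS1, IARS1, TARS1 and XPOT, the export factor for tRNA, were called in none of the 3 lines, with log2 fold changes from -0.68 to 0.34. With the replicate number as a term, NARS1 and TARS1 were lower in shUHRF1 (edgeR adjusted p = 0.000444 and 0.0210), and IARS1 and TARS1 in shDNMT1 (edgeR adjusted p = 0.0169 and 0.00349).

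The stress regulators and effectors had the medians farthest from 0 of the 4 roles, at log2 -1.30 in shUHRF1, -1.64 in shDNMT1 and 1.00 in shDNMT3B. Of the 12, 8 were lower in shUHRF1, 9 were lower in shDNMT1 and 7 were higher in shDNMT3B. ATF4 mRNA itself was at 682 and 524 CPM in shNC, 315 and 268 in shUHRF1, 251 and 245 in shDNMT1 and 945 and 701 in shDNMT3B. Every library of shUHRF1 and shDNMT1 was below every shNC library, and the level was 2.07-fold lower (log2 -1.05 ± 0.19 SE, edgeR adjusted p = 0.0184) and 2.43-fold lower (log2 -1.28 ± 0.20 SE, edgeR adjusted p = 0.00211). Both shDNMT3B libraries were above both shNC libraries, at log2 0.45 ± 0.19 (SE), with an edgeR adjusted p of 0.237, or 0.0296 with the replicate number as a term.

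CHAC1, which degrades glutathione, was at 21.7 and 17.4 CPM in shNC, 2.08 and 2.47 in shUHRF1, 1.58 and 1.46 in shDNMT1 and 46.6 and 36.8 in shDNMT3B. It was 8.56-fold lower in shUHRF1 (log2 -3.10 ± 0.21 SE, edgeR adjusted p = 2.16e-05), 12.9-fold lower in shDNMT1 (log2 -3.68 ± 0.22 SE, edgeR adjusted p = 5.76e-07) and 2.13-fold higher in shDNMT3B (log2 1.09 ± 0.19 SE, edgeR adjusted p = 0.00483). STC2, a secreted glycoprotein, was counted by 223 and 200 reads in shNC, 12 and 14 in shUHRF1, 3 and 1 in shDNMT1 and 654 and 708 in shDNMT3B. It was 17.7-fold lower in shUHRF1 (log2 -4.15 ± 0.25 SE, edgeR adjusted p = 1.18e-05) and 3.16-fold higher in shDNMT3B (log2 1.66 ± 0.20 SE, edgeR adjusted p = 0.000311); the shDNMT1 value (edgeR adjusted p = 1.42e-07) rests on 4 reads, and its fold is not given.

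DDIT4, an inhibitor of mTORC1, was at 21.0 and 22.2 CPM in shNC, 8.04 and 7.32 in shUHRF1, 5.81 and 4.99 in shDNMT1 and 52.9 and 58.2 in shDNMT3B. It was 2.81-fold and 4.0-fold lower in shUHRF1 and shDNMT1 and 2.57-fold higher in shDNMT3B (log2 1.36 ± 0.15 SE, edgeR adjusted p = 0.000179). SESN2, the leucine sensor that also restrains mTORC1, was 2.43-fold and 2.38-fold lower and 2.98-fold higher in the same lines. NUPR1, a stress-induced chromatin protein, was 5.33-fold and 5.17-fold lower and 2.68-fold higher, and TRIB3, the pseudokinase that limits the response, was 2.80-fold and 2.67-fold lower and 1.47-fold higher. JDP2, a leucine zipper repressor of the AP-1 family, was lower in shUHRF1 and shDNMT1 (log2 -1.30 and -1.96), and ATF5 in shDNMT1 (log2 -1.86). ATF5 was not called in shUHRF1, where it was at 47.7 and 40.1 CPM, against 132 and 85.0 in shNC. Its difference between shDNMT1 and shUHRF1 was not called. DDIT3, which encodes CHOP, was not called in shUHRF1 or shDNMT1 (log2 -0.33 and -0.41) but was 2.29-fold higher in shDNMT3B (log2 1.20 ± 0.19 SE, edgeR adjusted p = 0.00264); its exons overlap those of MARS1 on the other strand. CEBPG, a C/EBP partner of ATF4, and VLDLR, the lipoprotein receptor, were called in none of the lines.

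**Figure D2:**
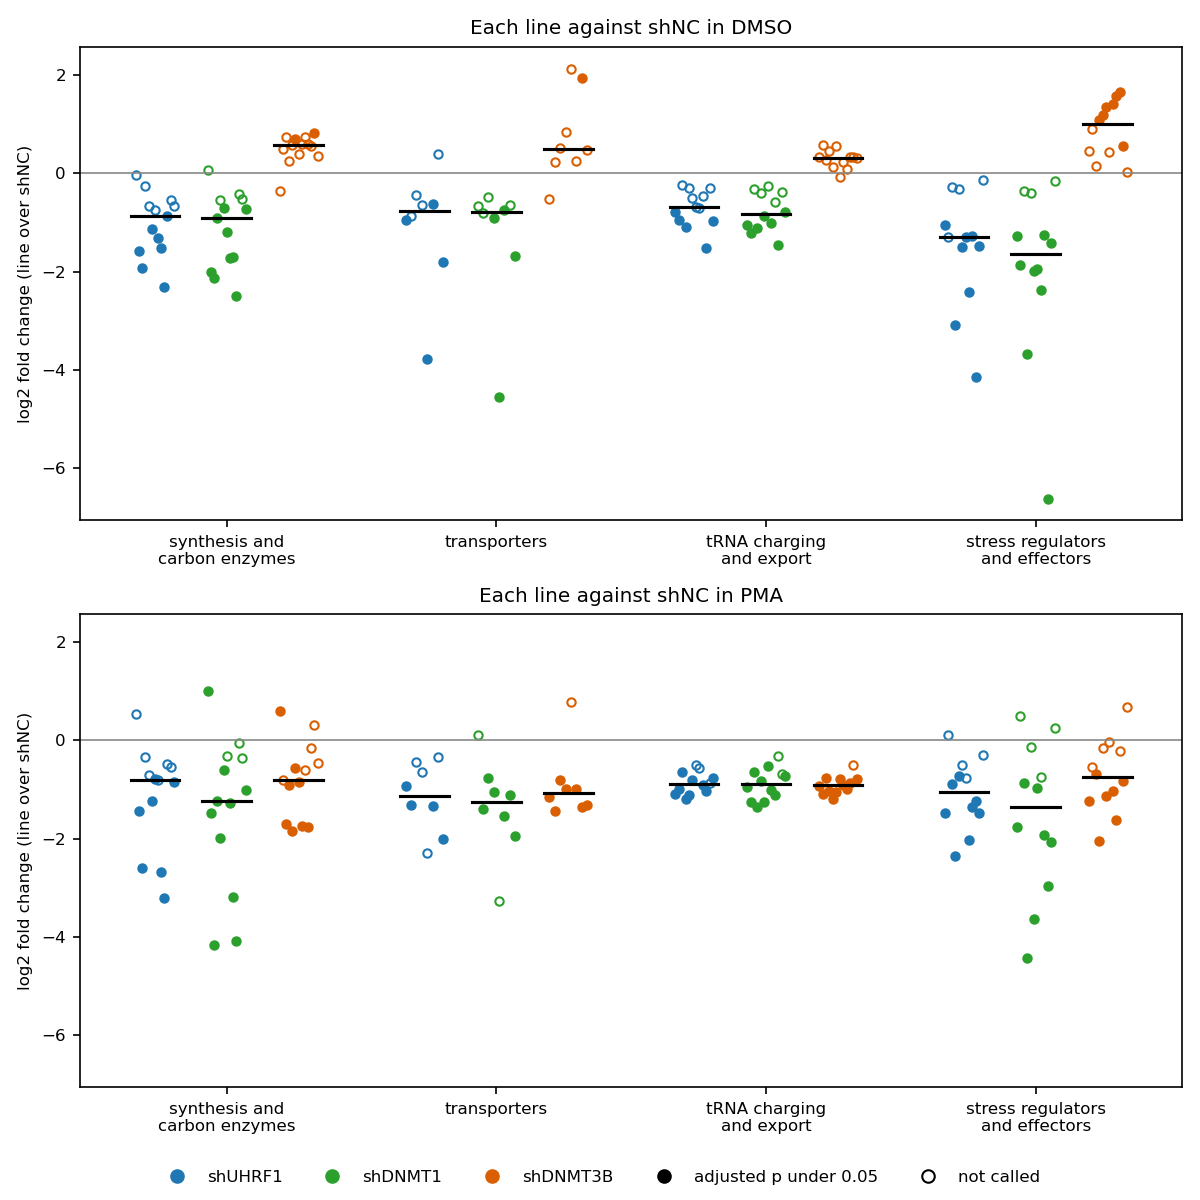
Log2 fold change of each member in shUHRF1, shDNMT1 and shDNMT3B against shNC, in DMSO (top) and in PMA (bottom), by role; filled points had an adjusted p under 0.05, open points did not, and bars are medians. In DMSO the shDNMT3B points lie mostly above 0 (10 called higher, 0 lower) and the others below it, and in PMA all 3 lines lie mostly below 0.

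The hairpin lines were also compared with each other in DMSO, in contrasts that leave out the shNC group means. The scaling and the estimate of the spread still came from all 16 libraries. Between shDNMT3B and shUHRF1, 35 of the 45 were higher and 0 lower in shDNMT3B (background 2.66% higher, 1.71% lower), with a median log2 fold change of 1.49 against -0.01 over all genes. Between shDNMT3B and shDNMT1, 36 were higher and 0 lower (background 4.73% and 1.61%, median 1.57). The separation was 6.44-fold for ASNS (log2 2.69 ± 0.31 SE, edgeR adjusted p = 0.000371), 7.54-fold for PSAT1 (log2 2.91 ± 0.19 SE, edgeR adjusted p = 5.80e-06) and 18.3-fold for CHAC1 (log2 4.19 ± 0.22 SE, edgeR adjusted p = 8.50e-07) between shDNMT3B and shUHRF1. Between shDNMT1 and shUHRF1, 2 members were lower in shDNMT1 and 0 higher (background 1.28% lower, 0.151% higher): SLC7A11 (log2 -1.05 ± 0.23 SE, edgeR adjusted p = 0.0470) and STC2, which had 4 reads in shDNMT1 and 26 in shUHRF1 (edgeR adjusted p = 0.0104). That count of 2 was 1 without shUHRF1 library 1 and 0 without any of the other 3 libraries, and 5 lower with 1 higher when the replicate number was a term. With that term, 755 of all 16503 genes were lower and 348 higher in shDNMT1. The members whose differences were not called included ASNS at log2 -0.19 ± 0.30 (SE), ATF4 at -0.23 ± 0.19 (SE) and WARS1 at 0.07 ± 0.17 (SE).

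In the control line shNC, 13 members fell and 17 rose after PMA (background 26% lower, 28.4% higher), a share near that of all genes. Of the synthesis enzymes 8 fell and 2 rose, of the transporters 1 fell and 4 rose, of the tRNA charging genes 0 fell and 5 rose, and of the stress genes 4 fell and 6 rose. Upper-quartile scaling moved the median log2 fold change of all genes after PMA by -0.31 to -0.24 in the 4 lines, and that of shDNMT3B against shNC in PMA by 0.13. It gave 18 lower and 13 higher members in shNC. With that scaling 1 charging gene was lower and 2 were higher, and the median log2 fold change of the stress genes turned from 0.18 to -0.10 and that of all 45 from 0.11 to -0.17. The falling enzymes included PYCR1 at 86.3 and 79.5 CPM in DMSO and 22.2 and 22.5 in PMA (log2 -1.89 ± 0.19 SE, edgeR adjusted p = 2.52e-06), GPT2 (3.34-fold lower) and PHGDH (2.58-fold lower). MTHFD2 (2.04-fold) and CTH (4.85-fold) rose.

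SLC7A11 had the largest rise of the 45 in shNC, from 18.5 and 24.6 CPM to 346 and 403 CPM, or 17.4-fold (log2 4.12 ± 0.25 SE, edgeR adjusted p = 3.37e-08). SLC3A2 (3.72-fold), SLC38A2 (log2 1.51) and SLC1A4 (3.27-fold) rose with it, while SLC7A5 and SLC7A1 were at log2 -0.05 and -0.20 and were not called. Of the charging genes, WARS1 (2.69-fold), SARS1 (log2 1.39) and CARS1 (1.56-fold) rose most, and of the 5 that rose CARS1, MARS1 and NARS1 were not called with upper-quartile scaling. ATF4 rose 1.59-fold, from 682 and 524 to 928 and 984 CPM (log2 0.67 ± 0.19 SE, edgeR adjusted p = 0.0109), but was not called with upper-quartile scaling (log2 0.38). ATF5 rose from 132 and 85.0 to 994 and 633 CPM, or 7.5-fold, and DDIT3, SESN2, NUPR1 and DDIT4 rose 3.76-fold, 3.50-fold, 3.01-fold and 2.67-fold. Exons of ATF5 overlap those of IL4I1 and NUP62 on the other strand. The strand setting of the counter is not known, so the ATF5 counts are uncertain in every line. VLDLR, TRIB3, JDP2 and STC2 fell, by 6.57-fold, 2.06-fold, log2 -1.06 and 2.39-fold.

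In shUHRF1, 17 members fell and 17 rose after PMA (background 25.5% and 29.4%), and in shDNMT1, 13 fell and 14 rose (background 24.1% and 28.6%), or 20 and 12 with upper-quartile scaling. That scaling also turned the medians of the charging genes from 0.08 to -0.23 in shUHRF1 and from 0.02 to -0.25 in shDNMT1, of the stress genes from 0.05 to -0.21 in shDNMT1, and of all 45 from 0.01 to -0.29 in shUHRF1. In shDNMT3B, 33 fell and 4 rose (background 19.7% and 25.2%), with a median log2 fold change of -1.17 against 0.02 over all genes, and leaving out any 1 of its 4 libraries left 30 to 32 lower. The 4 that rose became 2 without either DMSO library or without PMA library 1. The falls in shDNMT3B took in every role: 10 of 13 synthesis enzymes, 4 of 8 transporters, 9 of 12 charging genes and 10 of 12 stress genes. ASNS went from 130.4 and 125 CPM in DMSO to 21.1 and 19.1 CPM in PMA (log2 -2.67 ± 0.31 SE, edgeR adjusted p = 1.78e-05), and PSAT1 from 286 and 289 to 37.8 and 35.2 CPM (log2 -2.98 ± 0.19 SE, edgeR adjusted p = 9.03e-08). ATF4 went from 945 and 701 to 399.7 and 409 CPM (log2 -1.03 ± 0.19 SE, edgeR adjusted p = 0.000903), and CHAC1 from 46.6 and 36.8 to 3.37 and 4.33 CPM (log2 -3.44 ± 0.21 SE, edgeR adjusted p = 5.09e-08). The members that rose in shDNMT3B were SLC7A11 (1.79-fold), SLC1A4 (2.11-fold), ATF5 (2.74-fold) and DDIT3 (1.48-fold), the last of which was not called with upper-quartile scaling (log2 0.32).

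**Figure D3:**
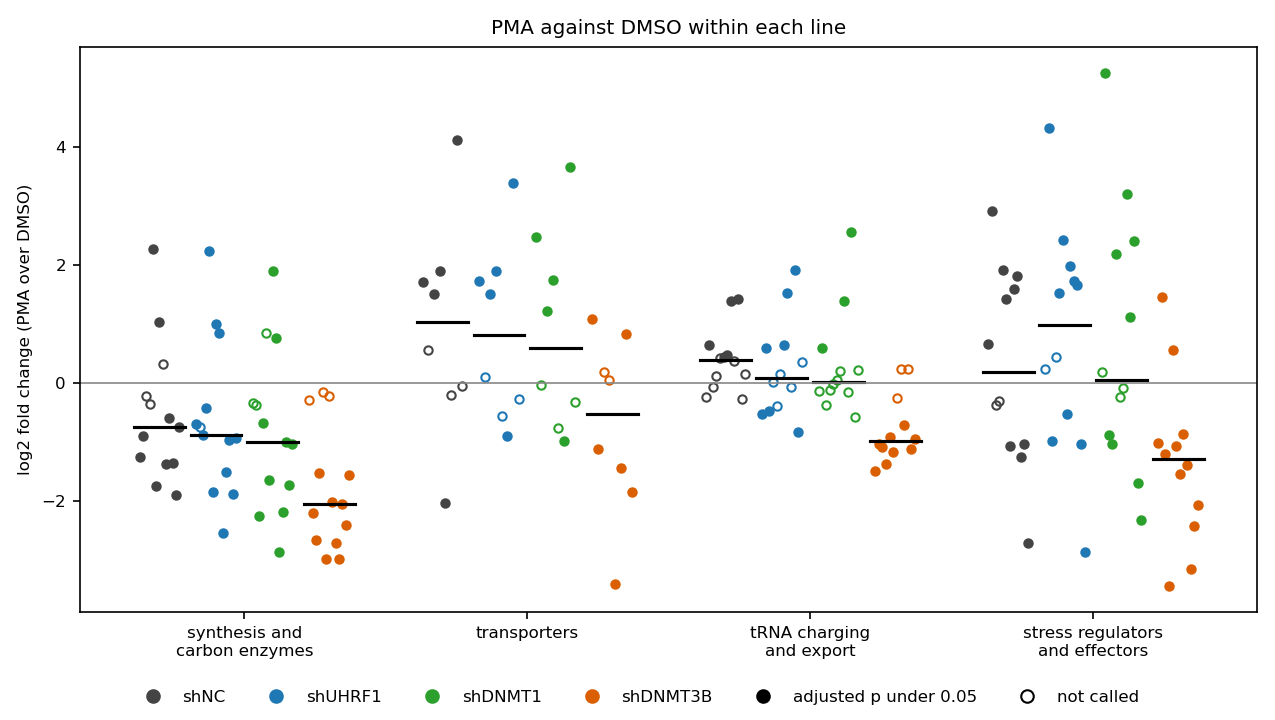
Log2 fold change of each member after PMA against DMSO within each of the 4 lines, by role; filled points had an adjusted p under 0.05, open points did not, and bars are medians. The shDNMT3B medians lie lower than those of the other lines in every role, although the points overlap, with 33 members called lower and 4 higher in shDNMT3B.

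The difference between the PMA responses was tested directly with an interaction term. Against shNC, 33 members responded more downward and 1 more upward in shDNMT3B (background 1.7% and 5.08%), with a median of -1.33 against 0.07 over all genes. SESN2 rose 3.50-fold in shNC and fell 2.63-fold in shDNMT3B, which is a difference of log2 -3.20 ± 0.20 SE, edgeR adjusted p = 4.36e-06. DDIT4 rose 2.67-fold in shNC and fell 2.10-fold in shDNMT3B (difference log2 -2.49 ± 0.22 SE, edgeR adjusted p = 3.08e-05), and ATF4 rose 1.59-fold (with the scaling limit above) and fell 2.04-fold (difference log2 -1.69 ± 0.27 SE, edgeR adjusted p = 0.00226). SLC7A11 rose in both, 17.4-fold and 1.79-fold (difference log2 -3.28 ± 0.33 SE, edgeR adjusted p = 9.71e-05); its DMSO level was already higher in shDNMT3B. ALDH18A1 was the member with the upward difference (log2 0.97 ± 0.20 SE, edgeR adjusted p = 0.0103), a call lost when either PMA library 1, of shNC or of shDNMT3B, was left out, and VLDLR, with falls of 6.57-fold and 4.18-fold, was not called unless the replicate number was a term. These differences use the same DMSO libraries as the line comparison in DMSO. The mitochondrial share of the shDNMT3B libraries after PMA was 19.5% and 9.35%, against 7.71% to 10.3% in the other libraries numbered 1 and 3.92% to 4.86% in those numbered 2, and its part in the difference was not tested.

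In shDNMT1, 5 members responded more downward and 4 more upward than in shNC (background 1.07% and 5.64%), and in shUHRF1 0 and 1 (background 0.109% and 0.739%). With the replicate number as a term these were 11 and 8 in shDNMT1 and 6 and 3 in shUHRF1. Of all 16503 genes, that fit called 958 downward and 2116 upward in shDNMT1, and 407 and 993 in shUHRF1. The 3 upward members in shUHRF1 are near the share of all genes. In shDNMT1 the 4 upward became 1 without shNC DMSO library 1, shDNMT1 DMSO library 2 or shDNMT1 PMA library 1, and 2 without shNC PMA library 2. The 5 downward became 2 without shNC DMSO library 2, shDNMT1 DMSO library 1 or shNC PMA library 1, and 3 without shNC PMA library 2 or shDNMT1 PMA library 1, and the total of 1 in shUHRF1 became 2 without shUHRF1 DMSO library 1. DDIT4 in shDNMT1 was at 5.81 and 4.99 CPM in DMSO and 5.11 and 4.04 CPM in PMA, while shNC went from 21.0 and 22.2 to 57.7 and 57.8 CPM (difference log2 -1.65 ± 0.23 SE, edgeR adjusted p = 0.000802). ATF5 (difference log2 2.35), WARS1 (1.12), ALDH18A1 (0.92) and STC2 (3.66) responded more upward in shDNMT1, and PSAT1 (-1.58), ASNS (-2.05), PHGDH (-1.49) and SLC7A1 (-0.79) more downward. STC2 was the member called in shUHRF1 (log2 2.92 ± 0.34 SE, edgeR adjusted p = 0.00551): it fell in shNC and rose in shUHRF1.

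After PMA all 3 hairpin lines lay below shNC, and shNC had the highest mean of the 4 lines for 39 of the 45 members. The 3 comparisons share the shNC PMA libraries, so their agreement is not independent. The hairpin lines were not compared with each other in PMA. In shUHRF1, 28 were lower and 0 higher (background 1.65% and 2.04%, median log2 fold change -0.89 against 0.02 over all genes). In shDNMT1, 33 were lower and 1 higher (background 6.35% and 8.5%, median -1.05), and in shDNMT3B, 32 were lower and 1 higher (background 9.05% and 11.3%, median -0.91). The count of 28 in shUHRF1 became 12 without shNC library 1, 17 without shUHRF1 library 1 and 11 without shUHRF1 library 2. ALDH18A1 was the member called higher in shDNMT1 and in shDNMT3B, at 45.1 and 42.1 CPM in the former and 35.1 and 31.1 CPM in the latter, against 20.8 and 22.9 CPM in shNC. In shDNMT3B it was not called without shNC library 1 or shDNMT3B library 1.

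ASNS after PMA was at 74.6 and 56.1 CPM in shNC, 12 and 9.45 in shUHRF1, 2.53 and 4.86 in shDNMT1 and 21.1 and 19.1 in shDNMT3B, with no overlap of any line with shNC. It was 6.08-fold lower in shUHRF1 (log2 -2.60 ± 0.32 SE, edgeR adjusted p = 0.000851), 18-fold lower in shDNMT1 (log2 -4.17 ± 0.35 SE, edgeR adjusted p = 9.85e-06) and 3.25-fold lower in shDNMT3B (log2 -1.70 ± 0.30 SE, edgeR adjusted p = 0.00210). PSAT1 was 9.25-fold, 17.0-fold and 3.41-fold lower, and PHGDH 6.43-fold and 9.18-fold lower in shUHRF1 and shDNMT1. In shDNMT3B, PHGDH was at log2 -0.60 ± 0.24 (SE), with an edgeR adjusted p of 0.102, or 0.00665 with the replicate number as a term. Of the transporters, SLC7A5 was at 240.5 and 192 CPM in shNC, 52.9 and 53.8 in shUHRF1, 65.4 and 46.5 in shDNMT1 and 90.5 and 81.9 in shDNMT3B, and was 4.05-fold, 3.86-fold and 2.51-fold lower. SLC7A11, at 346 and 403 CPM in shNC, was 2.15-fold lower in shDNMT1 and 2.55-fold lower in shDNMT3B, while shUHRF1 at 282 and 310.3 CPM was not called.

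Against shNC in PMA, 9, 10 and 11 of the 12 charging genes were lower in shUHRF1, shDNMT1 and shDNMT3B, and 0 were higher. All 12 fold changes were below 0 on the log2 scale in each line, with medians of -0.89, -0.90 and -0.92. In shDNMT3B they ran from log2 -1.19 (IARS1) to -0.49 (XPOT). The same shNC libraries stand in all 3 comparisons. Within a line, PMA against DMSO, 0 charging genes fell and 5 rose in shNC, and 3 fell and 4 rose in shUHRF1. In shDNMT1 0 fell and 3 rose, and in shDNMT3B 9 fell and 0 rose. Of all tested genes, 26% fell and 28.4% rose in shNC, and 25.5% and 29.4% in shUHRF1. The shares were 24.1% and 28.6% in shDNMT1 and 19.7% and 25.2% in shDNMT3B. With upper-quartile scaling, 4 charging genes fell and 2 rose in shUHRF1, and again in shDNMT1. That scaling gave 1 and 2 in shNC and 10 and 0 in shDNMT3B. EPRS1, for glutamate and proline, which was not called in any line in DMSO, was lower in all 3 after PMA (log2 -0.65, -0.64 and -0.76), though not in shUHRF1 with upper-quartile scaling. WARS1 in shDNMT1, at 467 and 409 CPM against 592 and 506 CPM in shNC, was not called (log2 -0.33 ± 0.17 SE, edgeR adjusted p = 0.245) unless the replicate number was a term (edgeR adjusted p = 0.0454). ATF4 was at 928 and 984 CPM in shNC, 329 and 357 in shUHRF1, 279 and 287 in shDNMT1 and 399.7 and 409 in shDNMT3B, and was 2.79-fold, 3.38-fold and 2.36-fold lower. CHAC1 was 5.11-fold, 21.5-fold and 4.14-fold lower. DDIT4 in shDNMT1 was 12.5-fold lower than in shNC (log2 -3.65 ± 0.17 SE, edgeR adjusted p = 2.74e-07), and in shUHRF1 it was at log2 -0.50 ± 0.15 (SE) and was called only with the replicate number as a term (edgeR adjusted p = 0.00962). ATF5 was called in none of the 3 lines after PMA, although with the replicate number as a term it was higher in shDNMT1 (edgeR adjusted p = 0.00730) and lower in shDNMT3B (edgeR adjusted p = 0.00203). DDIT3 was called lower in shUHRF1 (log2 -0.72), though not with upper-quartile scaling.

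**Figure D4:**
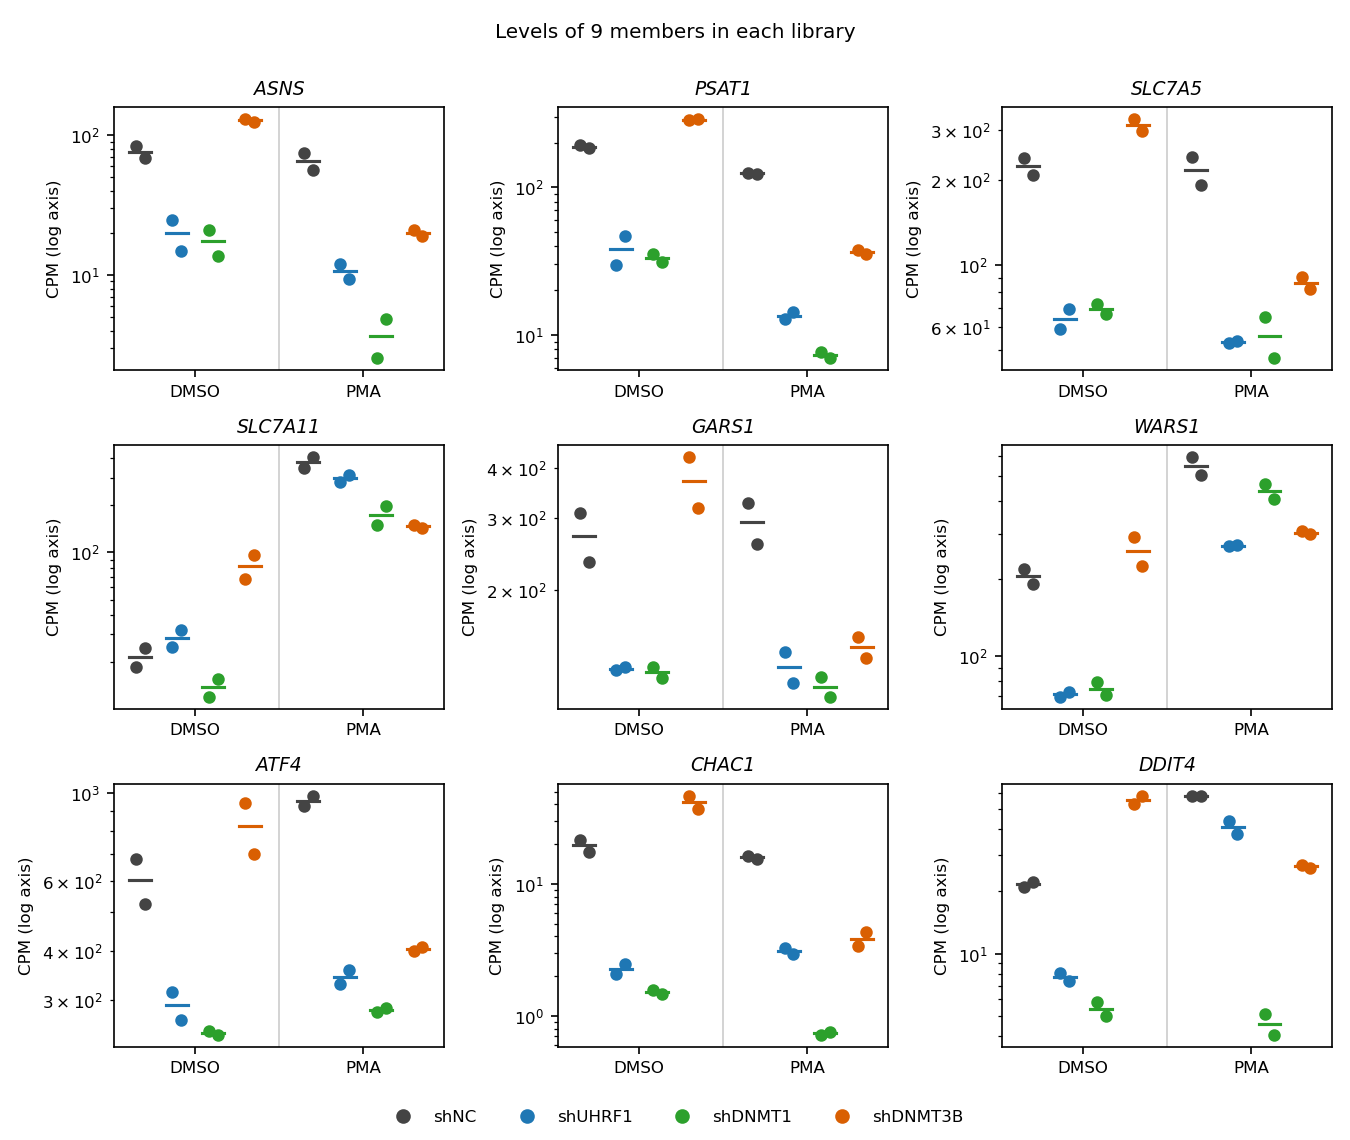
CPM (log axis) of 9 members in each of the 16 libraries, in DMSO (left) and PMA (right) in each panel; points are libraries and bars are means of 2. ASNS, PSAT1, SLC7A5, GARS1, ATF4 and CHAC1 show shDNMT3B above shNC in DMSO by group mean and below it in PMA, and SLC7A11 rose after PMA in all 4 lines.

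Genes of neighbouring lists were measured the same way, as a comparison of counts without a test between lists. They were chosen, like the members, with earlier results of these data known, so a difference between lists is not independent evidence. Of all tested genes in DMSO, 1.15% were called lower and 0.17% higher in shUHRF1, and 3.39% and 0.57% in shDNMT1. In shDNMT3B the shares were 2.89% and 1.62%. At these shares, 0 calls in a short list lies near the share of all genes. Of 12 other targets of the integrated stress response that were tested, 5 were lower in shUHRF1, 7 in shDNMT1 and 1 higher in shDNMT3B in DMSO, with medians of -0.87, -1.55 and 0.34. These counts were 9 lower in shUHRF1, 9 lower and 1 higher in shDNMT1, and 5 higher in shDNMT3B with the replicate number as a term. ADM2, a secreted peptide, was at log2 -3.37 and -4.04 in shUHRF1 and shDNMT1 (edgeR adjusted p = 0.000609 and 7.54e-05), and GDF15, a secreted stress cytokine, at log2 2.72 in shDNMT3B (edgeR adjusted p = 0.0183). Of the 9 cytosolic tRNA synthetases outside the list, 0 were called by edgeR in any line in DMSO, with medians of -0.04, 0.15 and 0.09, and of the 17 mitochondrial ones 0 were called. At an unadjusted p under 0.05 there were 0, 1 and 1 of the cytosolic and 0, 0 and 3 of the mitochondrial enzymes in shUHRF1, shDNMT1 and shDNMT3B, and DESeq2 called 1 of all these, a mitochondrial enzyme in shDNMT3B. Of 3 scaffold genes of the multisynthetase complex, 0 were called in these comparisons. With the replicate number as a term, 1 cytosolic enzyme was lower in shDNMT1, 1 was higher in shDNMT3B, and 1 mitochondrial enzyme was lower and 1 higher in shDNMT3B. After PMA, of the 9 cytosolic enzymes LARS1 was lower in shUHRF1 (log2 -0.69) and 0 were called in shDNMT1 and shDNMT3B. The background was 1.65% lower and 2.04% higher in shUHRF1, 6.35% and 8.5% in shDNMT1, and 9.05% and 11.3% in shDNMT3B.

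Of 21 other enzymes of amino acid and one-carbon metabolism, 1 was lower in shUHRF1 (ASS1, of arginine synthesis, log2 -0.93) and 2 in shDNMT1 (BCAT1, of branched-chain amino acids, log2 -0.95, and GOT1, of aspartate, log2 -0.88), and in shDNMT3B BCAT1 and GOT1 were higher (log2 0.85 and 0.92). GOT1 in shDNMT1 was not called with upper-quartile scaling. Of the 21, with the replicate number as a term, 6 were lower in shUHRF1 and 7 in shDNMT1, and in shDNMT3B 2 were lower and 3 higher. Of the 13 eIF2 kinases, phosphatase subunits and exchange factor genes, EIF2AK2, which encodes the kinase PKR, was lower in all 3 lines in DMSO (log2 -1.03, -2.05 and -2.38), and PPP1R15A, a phosphatase subunit induced by the response, was lower in shDNMT1 (log2 -0.85). Among 13 genes of mTORC1 and GCN2 amino acid sensing, SESN3 and SESN1 were higher in shDNMT1 (log2 1.35 and 0.54), in the opposite direction to SESN2, and DEPTOR was lower in shDNMT3B (log2 -1.21), though not with upper-quartile scaling. Of 15 ER chaperone and XBP1 or ATF6 branch genes, 0 were called by edgeR in any line in DMSO, where 1, 0 and 2 had an unadjusted p under 0.05 and DESeq2 called 1, lower in shUHRF1. With the replicate number as a term 7 were lower in shDNMT3B. After PMA, 2 of these were higher in shUHRF1, 6 in shDNMT1 and 5 in shDNMT3B, where 2 were lower (background 2.04%, 8.5% and 11.3% higher, and 9.05% lower). The higher counts were 8, 8 and 6 with the replicate number as a term, and 3 were then lower in shDNMT3B. Of all 16503 genes, that fit called 1378, 2690 and 3376 higher and, in shDNMT3B, 3213 lower. PDIA4, a protein disulfide isomerase of the ER, was at log2 1.46 in shUHRF1 and 2.63 in shDNMT1 after PMA (edgeR adjusted p = 0.00195 and 6.66e-06), in lines where CHAC1 and ASNS were lower.

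**Figure D5:**
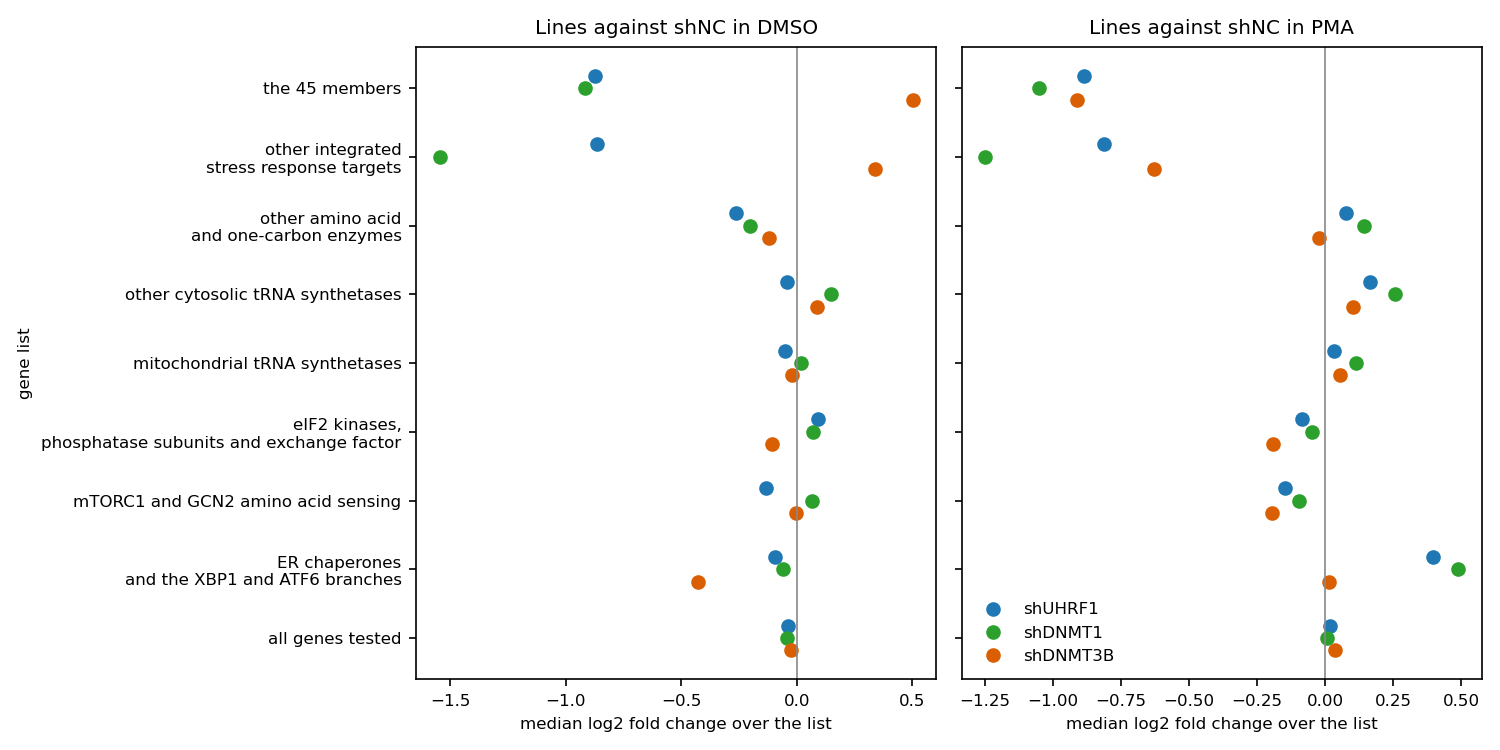
Median log2 fold change against shNC over each gene list (rows) in shUHRF1, shDNMT1 and shDNMT3B, in DMSO (left) and PMA (right); the bottom row is all 16503 genes tested. The 45 members and the 12 other stress response targets lie away from 0 and the synthetases outside the list within 0.26 of it, while the ER genes lie at -0.43 in shDNMT3B in DMSO and at 0.39 and 0.49 in shUHRF1 and shDNMT1 in PMA. The lists were chosen with earlier results of these data known.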

How the data were processed

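Poly(A) RNA of 16 libraries was sequenced as stranded paired-end libraries. The authors deposited 1 table of raw read counts per Ensembl gene, which holds whole numbers that were not normalized. Per the submitters' processing notes and the study's methods, reads were aligned to hg38 with STAR 2.4.0b and counted with HTSeq 0.6.1p1 (Cufflinks 2.1.1 and edgeR are also named); the annotation release and the strand setting of the counter are not given in the sources used here. Of the members, 18 have exons that overlap a gene on the other strand and 5 one on the same strand, and reads of such pairs may be split or lost. For 12 of the 16 samples the free-text description names another group than the title. The titles and the table's columns name the same 8 groups, but the columns carry the names used in the descriptions. Each column was placed in the group that its own name states. For those 12 samples the title does not bear out that placement, and their columns were not tied to single samples.

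Members were matched to the table by symbol through GENCODE release 44. The members and the other gene lists were chosen with earlier results of these data known, so no count over them is independent evidence. Counts were scaled by trimmed mean of M-values and genes with too few counts were left out (minimum count 10, minimum total 15), which left 16503. The 8 groups were fitted together with edgeR 4.0.16 in R 4.3.3 (robust quasi-likelihood F-test), and p-values were adjusted over all tested genes by Benjamini-Hochberg; calls needed an adjusted p under 0.05 and no minimum fold. All 45 members could be named. Values in every library are given for those that lead a result, and from each other list up to 4 genes with the smallest adjusted p were eligible. The totals of 13883556 to 23151864 counts per library limit the precision for genes of a few reads, such as SLC6A9.

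The replicate numbers in the column names pair the libraries. Deviations of same-numbered libraries from their group means were correlated in 28 of 28 pairs of groups, with r from 0.22 to 0.508. Alternatives were the replicate number as a term, DESeq2 1.42.0, upper-quartile scaling, no filter, the study's fold limit (log2 1 for PMA, 1.5-fold for lines), an edgeR exact test after 3 rounds of DEGES scaling, and leaving out each library. The fit was tested on simulated data. Promoters came from RefSeq windows, and tables and plots were made with Python 3.11.15, pandas 2.3.3 and matplotlib 3.10.9.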

Additional observations from a re-analysis of the deposited data

Results flagged for a closer look

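These are the members for which the PMA response of a hairpin line differed from that of shNC by the interaction test, each given as the log2 difference of the responses (line minus shNC). The 3 sets of differences share the shNC libraries, and their causes were not tested.

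In shUHRF1, STC2 differed upward (2.92). In shDNMT1, STC2 (3.66), ATF5 (2.35), WARS1 (1.12) and ALDH18A1 (0.92) differed upward. ASNS (-2.05), DDIT4 (-1.65), PSAT1 (-1.58), PHGDH (-1.49) and SLC7A1 (-0.79) differed downward there. The STC2 values rest on 4 reads in the shDNMT1 DMSO libraries and 26 in the shUHRF1 ones.

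In shDNMT3B, ALDH18A1 differed upward (0.97) and 33 members differed downward. The synthesis enzymes among these were ASNS (-2.45), CTH (-2.43), PSAT1 (-2.38), PCK2 (-2.35), PHGDH (-1.35), GPT2 (-1.25), MTHFD2 (-1.24) and CBS (-1.17). The transporters were SLC7A11 (-3.28), SLC3A2 (-1.84), SLC7A5 (-1.81), SLC1A5 (-1.67), SLC38A2 (-1.32) and SLC7A1 (-1.24). The charging genes were CARS1 (-1.67), MARS1 (-1.61), GARS1 (-1.48), IARS1 (-1.33), AARS1 (-1.26), WARS1 (-1.19), SARS1 (-1.14), YARS1 (-1.09), TARS1 (-1.09) and EPRS1 (-1.02). The stress genes were SESN2 (-3.20), CHAC1 (-3.14), DDIT4 (-2.49), NUPR1 (-2.45), STC2 (-1.89), ATF4 (-1.69), TRIB3 (-1.38), DDIT3 (-1.35) and CEBPG (-0.83). CEBPG was not called with upper-quartile scaling.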

How the results depend on the processing

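Of the 403 calls of single members, DESeq2 kept 402, the fit with the replicate number as a term kept 403, upper-quartile scaling kept 386 and the fit without a filter kept 381; the DEGES exact test kept 333 of the 359 calls it could give, and 0 calls reversed. With the replicate number as a term, the members called rose from 10 to 30 in shDNMT3B against shNC in DMSO, from 1 to 9 and from 9 to 19 for PMA responses that differ in shUHRF1 and shDNMT1, and from 2 to 6 between shDNMT1 and shUHRF1; this replicate block moved no other total over the 45 members by over 1.5 times and ended none of the 403 calls. DESeq2 gave 18, 5 and 14 in the first 3 of these comparisons. With the replicate number as a term, calls over all 16503 genes rose as well. In shDNMT3B against shNC in DMSO they rose from 477 lower and 267 higher to 1882 and 1201. Without a filter the shUHRF1 response count was 3, the DEGES test gave 1 between shDNMT1 and shUHRF1, and the study's fold limit left 19 after PMA in shUHRF1. Leaving out 1 library gave 11 to 19 members in shUHRF1 against shNC in DMSO, 17 to 24 in shDNMT1, 5 to 7 in shDNMT3B, 11 to 19 in shUHRF1 against shNC in PMA, 1 to 2 and 4 to 10 for the responses in shUHRF1 and shDNMT1, and 0 to 1 between shDNMT1 and shUHRF1; the cause was not tested. With 1 library left in a group, its spread was taken from the other groups. The responses that differ have no DEGES or fold-limit version, since those compare 2 groups. Depth limits SLC6A9, STC2 and CTH, which had few reads in some groups.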
